A study of Mus musculus with 4 samples.

Results

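The granzymes and other genes of the cytotoxic granule were compared between regulatory T cells with and without Nrp1 (neuropilin-1), a surface receptor for semaphorins. The genes were Gzma, Gzmb, Gzmk, Prf1, Nkg7, Ctsw, Srgn and Fasl, and every probe set listed with one of these 8 genes alone was taken. This gave 10 of the 45101 probe sets on the array, and 8 of the 18193 genes that had such a probe set. Gzma, Gzmb, Gzmk, Nkg7, Ctsw and Srgn had 1 probe set each, and Prf1 and Fasl had 2 each. The cells were CD4+ Foxp3+ spleen cells of Balb/c Foxp3 GFP mice, a strain with a fluorescent reporter for Foxp3, the defining factor of this lineage. They were sorted as Nrp- (2 arrays) or Nrp+ (2 arrays), with no treatment named in the labels. The mice were 4 to 6 weeks old for 3 arrays and 4 to 8 weeks old for the array titled Nrp- replicate 1. The labels do not say whether arrays stand for separate mice, sorts or pools, so p-values cannot be read as measuring the spread between mice. They rest on the spread between these arrays, which may be technical, and on a variance prior taken from all tested probe sets.

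Cytotoxic lymphocytes kill by releasing granules that hold perforin, a pore-forming protein, and granzymes, serine proteases that enter the target cell and start its death. Serglycin, the proteoglycan encoded by Srgn, packs these proteins inside the granule, and Fas ligand is a separate surface route to death through the receptor Fas. Regulatory T cells can make granzyme B and perforin too, and killing of responder cells is one of the ways in which they have been described to suppress immune responses.

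The promoters of the 3 granzyme genes and of Nkg7 are shown because these genes differed in direction. The granzymes had lower and Nkg7 higher intensities in Nrp1-positive cells within both replicate numbers. Nrp1-negative and Nrp1-positive values were nearly equal for Gzma in replicate 1 (553 and 544) and for Nkg7 in replicate 2 (798 and 820). None of these 4 genes passed either test described below. Each sequence is the 250 bases before the annotated start of the gene, taken from RefSeq on the build GRCm38.p6, and 7 of the 8 genes matched that table. Gzmb lies at chr14:56262335-56262584, Gzma at chr13:113100982-113101231 and Gzmk at chr13:113180966-113181215, all on the minus strand, and Nkg7 at chr7:43436888-43437137 on the plus strand. Gzma and Gzmk are neighbouring genes, and Gzmb lies next to Gzmc in a cluster of granzyme genes. Capitals mark matches on either strand to 6 motifs: RUNX (TGTGGT), the CRE half-site (TGACGT), AP-1 (TGANTCA), STAT (TTCNNNGAA), T-box (AGGTGTGA) and NFAT (TGGAAA).
Gzmb: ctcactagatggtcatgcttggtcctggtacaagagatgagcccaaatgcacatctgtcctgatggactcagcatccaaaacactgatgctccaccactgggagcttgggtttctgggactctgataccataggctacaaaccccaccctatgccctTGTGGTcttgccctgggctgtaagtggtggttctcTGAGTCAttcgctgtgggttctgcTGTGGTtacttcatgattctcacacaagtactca
Gzma: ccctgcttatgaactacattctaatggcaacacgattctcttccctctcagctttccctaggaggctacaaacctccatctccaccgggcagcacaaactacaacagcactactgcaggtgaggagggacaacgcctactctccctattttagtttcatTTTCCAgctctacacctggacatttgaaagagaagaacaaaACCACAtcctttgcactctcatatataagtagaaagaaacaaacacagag
Gzmk: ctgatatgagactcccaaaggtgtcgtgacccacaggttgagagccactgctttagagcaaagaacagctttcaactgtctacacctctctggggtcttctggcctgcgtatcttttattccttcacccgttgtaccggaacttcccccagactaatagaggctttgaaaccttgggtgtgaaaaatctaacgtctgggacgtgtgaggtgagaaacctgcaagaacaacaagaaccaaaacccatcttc
Nkg7: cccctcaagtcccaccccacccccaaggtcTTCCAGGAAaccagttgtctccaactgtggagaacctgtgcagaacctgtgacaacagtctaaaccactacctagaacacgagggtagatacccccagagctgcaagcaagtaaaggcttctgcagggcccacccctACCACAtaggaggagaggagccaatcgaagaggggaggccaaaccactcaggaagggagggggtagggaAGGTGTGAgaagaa
The Gzmb promoter held 2 RUNX matches and 1 AP-1 match, and no motif overlapped another in these 4 sequences. The Gzma promoter held 1 RUNX and 1 NFAT match, the Nkg7 promoter 1 RUNX, 1 STAT and 1 T-box match, and the Gzmk promoter none of the 6. Among all 32851 promoter windows of this length, 14% held the RUNX letters, 6.75% those of AP-1, 18.6% those of NFAT, 7.02% those of STAT, 6.47% those of the CRE half-site and 1.12% those of the T-box. A RUNX match was found for 5 of the 7 genes, Gzma, Gzmb, Prf1, Nkg7 and Srgn (at 1 of its 2 annotated starts). NFAT matches were found for 2 genes, CRE half-site matches for 2, and AP-1, STAT and T-box matches for 1 each. These counts are over genes, which had 8 windows, while the shares above are over windows. Whether any motif is more frequent in these genes was not tested. A match is a run of letters and does not show that a factor binds there.

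For the array titled Nrp- replicate 1, the source name and cell type given are those of Nrp+ cells, and the title was followed. Its Nrp1 intensity was 339, the lowest of the 4, against 1223 in Nrp1-negative replicate 2 and 9344 and 7745 in Nrp1-positive replicates 1 and 2. By its Nrp1 RNA the array thus lay with the Nrp1-negative group, as titled. Fits below that move it to the Nrp1-positive group go against this value. Replicate numbers went with the scaling of the deposited intensities. Their trimmed mean was 500.003 on both arrays numbered 1 and 150.001 on both numbered 2, and all 4 arrays were brought to a trimmed mean of 500. After this, the median of 27 poly-A spike control probe sets was 2723 and 2277 on Nrp1-negative and Nrp1-positive replicate 1. It was 5.49 and 5.51 on those of replicate 2. Pearson correlations across the 22519 tested probe sets, which are not independent replicates, were 0.976 and 0.982 within a replicate number and 0.935 and 0.948 within a group. The intensity of Foxp3, 4.45 and 36.4 without Nrp1 and 2.16 and 19.9 with it, was below the filter on dim probe sets, while the T cell genes Cd4, Cd3d, Cd3e and Cd3g and the regulatory T cell genes Il2ra, Ctla4 and Ikzf2 passed it. Of these marker genes 8 of 9 were tested, and Nrp1 and Ikzf2 were higher with the replicate block in the limma test described below; without the filter on dim probe sets, Ikzf2 lost its call, at an adjusted p of 0.141 in the same blocked limma model. The female-specific RNA Xist measured 83.2 on Nrp1-positive replicate 1 against 4083 on Nrp1-negative replicate 1, so the arrays of replicate 1 differ in more than their group. On Nrp1-negative and Nrp1-positive replicate 2 it measured 13058 and 13630. A shared replicate number thus does not show that arrays come from the same mice. The part of the further difference within replicate 1 in the values below was not tested.

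Ctsw, which encodes cathepsin W, a cysteine protease of cytotoxic lymphocytes, was the granule gene with the largest difference, 1.95-fold higher in Nrp1-positive cells. Nkg7, a granule membrane protein gene, had a mean 1.70-fold higher, nearly all of it in replicate 1. The 3 granzyme genes and both Fasl probe sets had lower values in Nrp1-positive cells in both replicates, though Gzma was nearly equal in replicate 1. Their means over the replicates were 1.15-fold to 1.69-fold lower, and that of Srgn differed by 1.09-fold. Fewer cells that express a gene and less of its RNA per cell cannot be told apart in these sorted populations. In limma without a term for the replicate number, 0 of the 10 probe sets passed an adjusted p of 0.05, and neither did any of the 22519 tested (0%), of which 242 had an unadjusted p below 0.05. With the replicate difference left in the residual spread, this count does not show that values did not differ. With the replicate number as a block, Ctsw passed (adjusted p = 0.00985 in limma with Benjamini-Hochberg adjustment) and the other 9 did not, with adjusted p from 0.567 to 0.984. That fit called 52 of 22519 probe sets, or 0.231%, of which 32 were higher (0.142%) and 20 lower (0.0888%), with 1568 at an unadjusted p below 0.05. An exact two-sided permutation test of 2 against 2 arrays cannot give a p below 0.33.

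All 10 probe sets had the same direction in both replicates, 4 higher and 6 lower in Nrp1-positive cells. Of all tested probe sets, 51.7% had one direction (28% higher and 23.7% lower). For Srgn (0.01) and Gzma (−0.02) in replicate 1 and Nkg7 (0.04) in replicate 2, the direction rests on a very small difference. The genes were chosen with earlier results of these data known, so shares of the 10 are no test of these genes. The groups did not overlap for 5 of the 10, against 20.1% of all tested (11.5% with Nrp1-positive higher and 8.57% with it lower). These were Ctsw and 1 Prf1 probe set, with Nrp1-positive higher, and Gzmk, the other Prf1 probe set and 1 Fasl probe set, with Nrp1-positive lower. The median difference of the 10 was −0.24 on the log2(intensity + 16) scale, −0.08 in replicate 1 and −0.27 in replicate 2, and that of all tested probe sets was 0.01. The median of the 10 turned to 0.09 without Nrp1-negative replicate 2, was −0.02 without Nrp1-positive replicate 1, and was 0.12 for the 5 probe sets that passed a filter at percentile 75. Every difference below is taken as Nrp1-positive minus Nrp1-negative on this scale, which understates the change of dim probe sets. Each SE below is that of limma, which draws it towards a variance prior from all tested probe sets. It is not the spread of the 2 replicate differences, and can be smaller or larger than their disagreement.

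**Figure D1:**
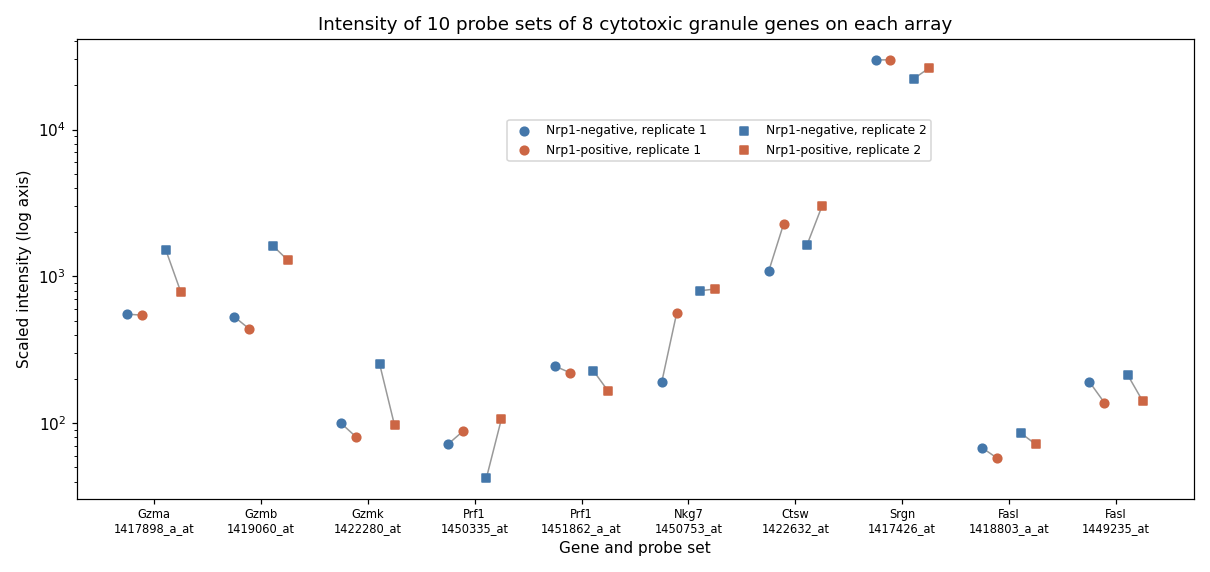
Scaled intensity (log axis) of each of the 10 probe sets on the 4 arrays, with grey lines joining the Nrp1-negative (blue) and Nrp1-positive (orange) array of one replicate number (circles, replicate 1, squares, replicate 2). Ctsw is higher in both orange points than in both blue ones, whereas Gzmb and Gzma differ mostly between circles and squares.

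Gzmb encodes granzyme B, which cuts after aspartate and activates caspases. Its intensity was 531 and 1619 in Nrp1-negative replicates 1 and 2, and 439 and 1291 in Nrp1-positive replicates 1 and 2. Both arrays of replicate 2 were higher than both of replicate 1, and the groups overlapped. Within replicates the Nrp1-positive array was lower by nearly the same amount, −0.27 and −0.32, with a mean of −0.29 ± 0.15 (SE with the block, n = 2; SE 0.69 without it). The difference between replicates, 1.55 higher in replicate 2, was thus larger than that between groups. Without Nrp1-negative replicate 2 the Gzmb difference was 0.50, and without Nrp1-positive replicate 1 it was 0.47, in fits that leave a group with 1 replicate number. It was −1.08 without Nrp1-negative replicate 1, −1.06 without Nrp1-positive replicate 2 and −1.25 when the array with conflicting labels was moved to the Nrp1-positive group.

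Gzma encodes granzyme A, a tryptase that cuts after basic residues. Its intensity was 553 and 1510 in Nrp1-negative cells and 544 and 782 in Nrp1-positive cells, replicate 1 first. The arrays of replicate 1 were nearly equal (−0.02), and the difference lay in replicate 2 (−0.94), where Nrp1-negative cells had the highest of the 4 values. The mean difference was −0.48 ± 0.21 (SE with the block, n = 2; SE 0.50 without it), the groups overlapped, and the limma adjusted p was 0.682 with the block. Without Nrp1-negative replicate 2 the difference was 0.23, without Nrp1-negative replicate 1 it was −1.19, and with the latter moved to the Nrp1-positive group −1.27.

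Gzmk, the other tryptase granzyme of the pair, had an intensity of 99.8 and 253 in Nrp1-negative cells, against 80.6 and 96.6 in Nrp1-positive ones. Nrp1-negative replicate 2 again had the highest value, and both Nrp1-positive values were below both Nrp1-negative ones by a narrow margin. The difference was −0.26 in replicate 1 and −1.26 in replicate 2, with a mean of −0.76 ± 0.35 (SE with the block, n = 2) and an adjusted p of 0.722 in limma with the block. It stayed negative with each array left out, from −0.15 without Nrp1-negative replicate 2 to −1.37 without Nrp1-negative replicate 1. Gzmk was dim, between percentiles 50.8 and 66.7 of each array, and the files give no detection calls.

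Of 7 other granzyme genes, Gzmc, Gzmd, Gzme, Gzmf, Gzmg, Gzmm and Gzmn, 6 were below the filter on dim probe sets, with intensities from 0.467 to 58.9. Gzmc passed the filter and did not pass either test, with values of 78.4 and 55.7 in Nrp1-negative arrays, against 82.7 and 87.8 in Nrp1-positive ones. The difference was 0.06 in replicate 1 and 0.53 in replicate 2. The granzyme genes are similar in sequence, and cross-hybridisation between them was not tested.

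Prf1, which encodes perforin, gave opposite directions at its 2 probe sets. At 1451862_a_at the intensity was 245 and 228 in Nrp1-negative cells, against 221 and 165 in Nrp1-positive ones, lower in both replicates (−0.14 and −0.43). At 1450335_at it was 72.0 and 42.6 in Nrp1-negative cells, against 88.2 and 107 in Nrp1-positive ones, higher in both replicates (0.24 and 1.07). The groups did not overlap at either probe set, so the files give no single direction for perforin RNA. The means were −0.28 ± 0.26 and 0.66 ± 0.37 (SE with the block, n = 2), with limma adjusted p of 0.932 and 0.820 with the block. With each array left out, the first ranged from −0.48 without Nrp1-positive replicate 1 to −0.09 without Nrp1-positive replicate 2, and the second from 0.36 without Nrp1-negative replicate 2 to 0.95 without Nrp1-negative replicate 1. The probe set with the higher values in Nrp1-positive cells was the dimmer one, between percentiles 41.6 and 55.5 of each array.

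**Figure D2:**
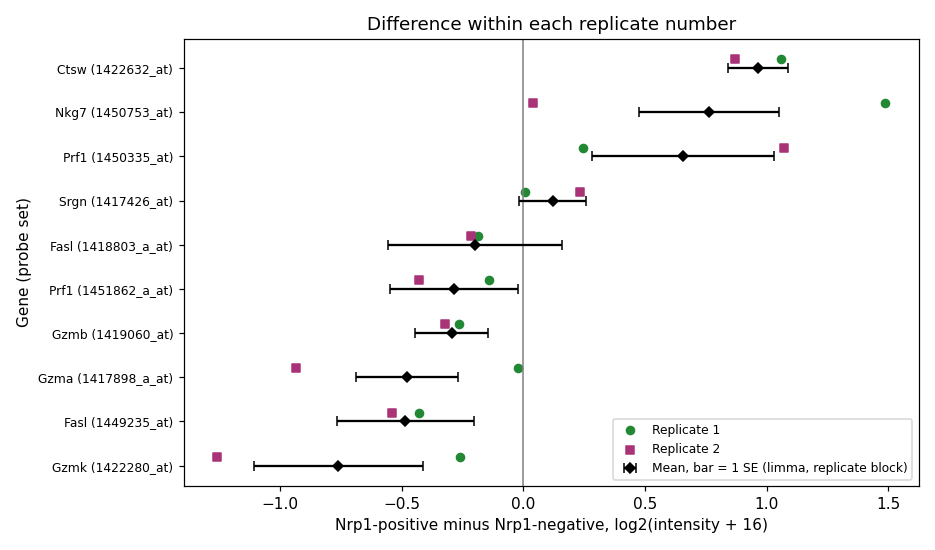
Difference between Nrp1-positive and Nrp1-negative arrays (positive values, higher with Nrp1), in log2(intensity + 16), for each probe set in replicate 1 (green circles) and replicate 2 (purple squares), with the mean (diamonds) and 1 SE of limma with the replicate block. The SE is drawn towards a variance prior from all tested probe sets and is not the spread of the 2 replicates. The replicates of Ctsw lie at 1.06 and 0.87, those of Nkg7 at 1.49 and 0.04, and those of Gzma at −0.02 and −0.94.

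Ctsw had intensities of 1083 and 1645 in Nrp1-negative replicates 1 and 2 and of 2274 and 3020 in Nrp1-positive replicates 1 and 2. Both Nrp1-positive values were above both Nrp1-negative ones. The difference was 1.06 in replicate 1 and 0.87 in replicate 2, with a mean of 0.97 ± 0.12 (SE with the block, n = 2; SE 0.28 without it). An absolute difference of this size or more was found for 1.10% of the tested probe sets. Ctsw passed in 6 of the 7 fits with the block, with adjusted p from 0.00174 to 0.0410, and not in the one without the mean-variance trend of limma's prior (adjusted p = 0.697), in which 0 probe sets passed and 1512 had an unadjusted p below 0.05. It did not pass without the block (adjusted p = 1.000, unadjusted p = 0.0163 in limma). Over arrays left out, the difference ranged from 0.67 without Nrp1-negative replicate 1 to 1.26 without Nrp1-negative replicate 2, and it was 0.25 with Nrp1-negative replicate 1 moved to the Nrp1-positive group. In each of these the Nrp1-positive mean was the higher one.

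Nkg7 encodes a membrane protein of cytotoxic granules that takes part in their release. Its intensity was 191 in Nrp1-negative replicate 1 and 565 in Nrp1-positive replicate 1, and 798 and 820 in the same order in replicate 2. The low value stood out in 1 array, Nrp1-negative replicate 1, and the groups overlapped. The difference was 1.49 in replicate 1 and 0.04 in replicate 2, with a mean of 0.76 ± 0.29 (SE with the block, n = 2; SE 0.66 without it) and an adjusted p of 0.567 in limma with the block. Without Nrp1-negative replicate 1, the array with conflicting labels, the difference was −0.22, and after moving it to the Nrp1-positive group −0.81. Without Nrp1-negative replicate 2 it was 1.75.

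Srgn, the serglycin gene, was above percentile 99.5 of the intensities on every array. Its values were 29732 and 22237 in Nrp1-negative cells, against 29848 and 26177 in Nrp1-positive ones. The difference was 0.01 in replicate 1 and 0.24 in replicate 2, with a mean of 0.12 ± 0.14 (SE with the block, n = 2), and 55.6% of tested probe sets had one at least as large. The groups overlapped, and without Nrp1-negative replicate 2 the difference was −0.09.

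Fasl, which encodes Fas ligand, had lower values in Nrp1-positive cells at both probe sets. At 1449235_at the intensity was 192 and 213 in Nrp1-negative cells, against 138 and 141 in Nrp1-positive ones, and the groups did not overlap. The difference was −0.43 in replicate 1 and −0.54 in replicate 2, with a mean of −0.48 ± 0.28 (SE with the block, n = 2) and an adjusted p of 0.826 in limma with the block. With each array left out it ranged from −0.42 to −0.55. At 1418803_a_at, near the middle of each array at percentiles 45.2 to 53.4, the values were 67.8 and 85.7 in Nrp1-negative cells, against 57.7 and 71.7 in Nrp1-positive ones. There the groups overlapped, and the differences were −0.19 and −0.21. Their mean of −0.20 ranged from −0.34 without Nrp1-negative replicate 1 to −0.06 without Nrp1-negative replicate 2.

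**Figure D3:**
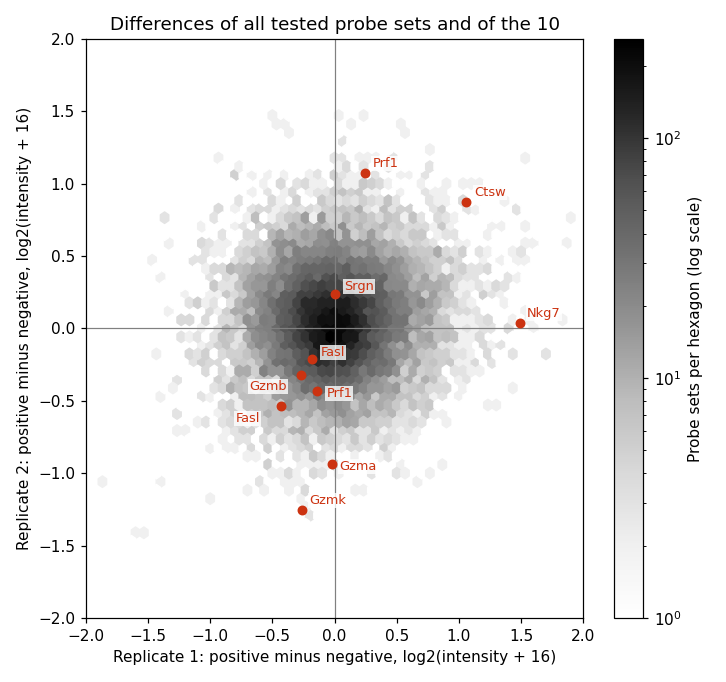
Difference in replicate 1 (x axis) against replicate 2 (y axis), both as Nrp1-positive minus Nrp1-negative in log2(intensity + 16), for the 10 probe sets (red) over all 22519 tested (grey, shaded by number per hexagon on a log scale). Ctsw lies at 1.06 and 0.87, Nkg7 near the x axis and Gzma near the y axis, and 67 probe sets beyond ±2 are outside the frame.

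The granule genes also differed between replicate numbers, and for some by more than between groups. In replicate 2, averaged over both groups, Gzmb was 1.55 higher, Nkg7 1.25, Gzma 0.97, Gzmk 0.72 and Ctsw 0.50. Srgn was 0.30 lower there, the Prf1 probe sets 0.17 and 0.24 lower, and the Fasl probe sets 0.08 and 0.26 higher. Medians of marker lists between replicates went both ways. The median of 9 tested proliferation genes was 2.58 higher in replicate 2 and that of 10 myeloid markers 1.76, those of the CD8 T with NK cell and the plasmacytoid dendritic cell lists were 0.79 and −0.08, and that of all tested probe sets was −0.02. Between groups, the proliferation genes had a median of −0.42, with 7 of 9 lower in both replicates and none passing either test, and the myeloid markers 0.10, at 0.36 in replicate 1 and −0.21 in replicate 2. The part of these genes in the granzyme values was not tested.

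**Figure D4:**
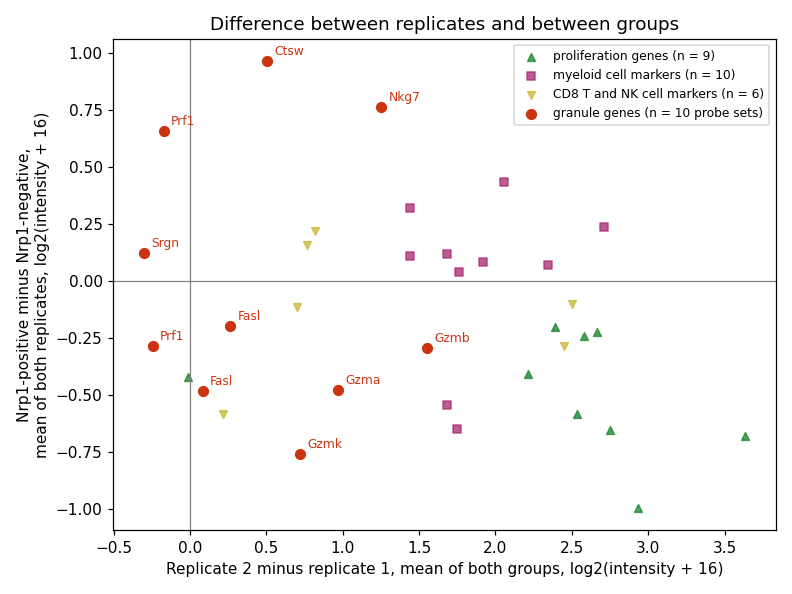
Replicate 2 minus replicate 1, mean of both groups (x axis), against Nrp1-positive minus Nrp1-negative, mean of both replicates (y axis), both on the log2(intensity + 16) scale, for the 10 granule probe sets (red, named) and the tested proliferation, myeloid and CD8 T with NK cell genes. Gzmb, Nkg7 and Gzma lie to the right with the marker genes, and Ctsw stands highest.

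CD8 T cells and NK cells are the main users of this programme, and their markers, taken as 1 list, gave no common direction. Of 12 listed genes, 11 had a probe set and 6 passed the filter, 0 passed either test and 4 had one direction in both replicates, 1 higher and 3 lower. Their summed intensity was 1507 and 5824 in Nrp1-negative cells, against 1586 and 4595 in Nrp1-positive ones, replicate 1 first, with Tyrobp and Fcer1g, which myeloid cells also express, giving most of replicate 2. Cd8a was below the filter, at 40.2 and 19.4 in Nrp1-negative cells, against 84.4 and 72.3 in Nrp1-positive ones. The other CD8 gene, Cd8b1, passed it, at 231 and 411 in Nrp1-negative cells, against 266 and 490 in Nrp1-positive ones. Both CD8 genes were thus higher in Nrp1-positive cells in both replicates, Cd8b1 by 0.19 and 0.24. Ncr1, an NK cell receptor gene, was 104 and 141 in Nrp1-negative cells, against 74.3 and 77.0 in Nrp1-positive ones. Eomes, a transcription factor of cytotoxic cells, was 303 and 508 against 282 and 463. These intensities do not show whether such cells were in the sorts, and their part in the granule gene values was not tested.

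Other cells that express some of these genes were checked in the same way. Of the plasmacytoid dendritic cell markers 6 of 8 passed the filter, with a median difference of 0.06 and summed intensities of 3815 and 4873 in Nrp1-negative cells, against 3845 and 4110 in Nrp1-positive ones. The defining marker Siglech was below the filter, at 79.7 and 47.1 in Nrp1-negative cells, against 76.1 and 14.7 in Nrp1-positive ones. Of 7 mast cell and basophil markers 1, Kit, passed the filter, with a difference of −0.71, and of 5 B cell markers with a probe set 1, Cd79b, did, with 0.53. Summed intensities were 243 and 789 in Nrp1-negative cells, against 182 and 630 in Nrp1-positive ones for the mast cell and basophil list, and 322, 489, 507 and 557 in the same order for the B cell list. The myeloid sum was 13095 and 54414 in Nrp1-negative cells, against 15839 and 50891 in Nrp1-positive ones, so it differed by replicate more than by group. None of the genes on these lists passed either test.

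The wider cytotoxic pathway was described by 6 lists with 74 genes, of which 56 were tested. With the block 1 of the 56 passed, lower in Nrp1-positive cells, against 0.353% of the 10198 genes tested (0.206% higher and 0.147% lower), and 0 passed without it. That gene was Ctsl, which encodes the lysosomal protease cathepsin L. It had intensities of 2535 and 1756 in Nrp1-negative cells, against 1020 and 934 in Nrp1-positive ones, and both Nrp1-positive values were below both Nrp1-negative ones. The difference was −1.30 in replicate 1 and −0.90 in replicate 2, a mean of −1.10 ± 0.14 (SE with the block, n = 2) or 2.14-fold lower, with an adjusted p of 0.00985 in limma with the block. The call was lost with the block and a filter at percentile 75 (adjusted p = 0.0628 in limma) or without the mean-variance trend (0.697), and the difference was −0.38 with Nrp1-negative replicate 1 moved to the Nrp1-positive group. Ctsw and Ctsl, both cathepsin genes, passed with the block in opposite directions.

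Granzyme inhibitors and activating proteases, the list that holds Ctsl, had 7 genes tested and a median difference of 0.00. The granzyme B inhibitor gene Serpinb9 was 681 and 781 in Nrp1-negative cells, against 796 and 673 in Nrp1-positive ones, with no common direction. Ctsc, which encodes the protease that activates progranzymes, was 3957 and 4909 against 4180 and 4592, and the groups overlapped. Cst7, which encodes cystatin F, an inhibitor of that protease, differed by 0.54 and 0.33 in the 2 replicates and Ctsh, a cathepsin gene, by −0.29 and −0.77. Neither passed, with adjusted p of 0.346 and 0.779 in limma with the block.

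Of 18 tested genes of granule biogenesis, docking and release, 0 passed either test and the median difference was 0.07. Values were higher in both replicates for 9 and lower in both for 2, where 27.9% and 26% of all tested genes were. The largest differences with one direction were those of Lamp2 (0.50), a lysosomal membrane protein gene, Igf2r (0.49), which encodes a mannose 6-phosphate receptor that sorts granzymes, and Stx11 (0.45), a syntaxin needed for granule release. Igf2r had intensities of 5876 and 4873 in Nrp1-negative cells, against 8158 and 6909 in Nrp1-positive ones, with no overlap. Its adjusted p was 0.162 in limma with the block, and 0.0303 with quantile normalisation and the block. Rab27a, which docks granules at the membrane, differed in opposite directions in the 2 replicates (−0.12 and 0.76).

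Death ligands, receptors and adaptors had 11 genes tested, 0 called and a median of 0.03. Fas, the receptor for Fas ligand, had values of 1677 and 1585 in Nrp1-negative cells, against 1418 and 1244 in Nrp1-positive ones, a difference of −0.24 and −0.35 in replicates 1 and 2 without overlap. Its adjusted p was 0.680 in limma with the block. Fas and Fasl thus both had lower values in Nrp1-positive cells in both replicates, and neither passed. Bid, a substrate of granzyme B, differed by 0.73 in replicate 1 and 0.06 in replicate 2.

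Of 14 transcriptional regulators tested, 0 passed either test, and the median was −0.01. Tbx21, Eomes and Runx3, the factors best known for driving granzyme and perforin genes, differed by 0.05, −0.11 and 0.00. Values were higher in both replicates for 3 and lower in both for 6, where 27.9% and 26% of all tested genes were. Hopx, a homeodomain cofactor gene, and Bhlhe40 had the largest differences. Hopx was 341 and 454 in Nrp1-negative cells, against 709 and 858 in Nrp1-positive ones, 1.02 and 0.89 higher in replicates 1 and 2. Bhlhe40 was 300 and 492 in Nrp1-negative cells, against 815 and 680 in Nrp1-positive ones. Neither overlapped between groups, with adjusted p of 0.0784 and 0.219 in limma with the block, and Hopx passed with quantile normalisation and the block (adjusted p = 0.0331). Among cytokines and chemokines of cytotoxic lymphocytes 5 of 8 genes were tested, 0 passed and the median was 0.12, with Il18rap, a chain of the interleukin-18 receptor, at 1.04 and 0.59 in the 2 replicates and Ccl5 at 0.03 and −0.80.

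Genes with a pattern most like that of Gzmb and of Ctsw over the 4 arrays were found by the Euclidean distance between centred log2 values. For Ctsw the nearest were Ncf1 (0.07), Niban1 (0.14), Raph1 (0.15), Chdh (0.16) and Hopx (0.17), and for Gzmb Fbxo5 (0.05), Incenp (0.13), Lst1 (0.14), Zfand4 (0.15) and Eme1 (0.16). Fbxo5 and Incenp are genes of mitosis. With 4 arrays many genes are this alike: 1049 of 10197 genes had a Pearson r of 0.95 or more with Gzmb and 239 with Ctsw, and no other granule gene was among them for either.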

How the data were processed

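RNA of the sorted cells was extracted with Trizol and hybridised after biotin labelling to a 1-colour Affymetrix mouse array, per the labels' protocols. The authors deposited linear probe set intensities, for which the submitters' processing notes name MAS5. The sources used here give no version, settings or detection calls for it. Arrays were scaled to a mean of 500 after trimming 2% at each end and analysed as log2(intensity + 16). Gene names came from the platform annotation: 34945 probe sets had 1 gene, 932 several and 9160 none. Of 45037 non-control probe sets, the 22519 in the upper part of mean level, from percentile 50 on, were tested, and a listed gene was represented by its brightest one that passed. All 10 granule probe sets passed this filter. The comparison used limma (version 3.58.1, R 4.3.3; mean-variance trend, two-sided, Benjamini-Hochberg at 0.05). The main test has no replicate term, and the replicate number as a block is the alternative. Same-numbered arrays share a scaling target and deviated together (r = 0.695 between deviations from group means), so blocked values are given where they change a call. With 2 arrays per group both pairs give this same r, so it is 1 value and not 2. With the block 1 residual degree of freedom joins 9.64 from the variance prior. The script was tested on simulated data. The genes and lists were chosen with earlier results of these data known. Named are all 8 granule genes, and from each list the genes past either test and up to 3 with the largest difference in one direction in both replicates; Serpinb9, Ctsc, Rab27a, Tbx21, Eomes, Runx3, Ccl5 and the marker genes were named after their values were seen. Alternatives were the normalisation, pseudocount, filter, variance trend, replicate block, the label conflict and each array left out. The number of arrays limits the precision. Drawings were made with matplotlib 3.10.9.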

Additional observations from a re-analysis of the deposited data

How the results depend on the processing

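All 10 granule probe sets kept their direction under quantile normalisation and under pseudocounts of 1 and 64. The filter, the variance prior and the block leave each difference as it is and alter its test only. The 6 reversals came from leaving out an array or from the label conflict, which leave the replicate numbers uneven over the groups: Gzma was 0.23 and Srgn −0.09 without Nrp1-negative replicate 2, Gzmb 0.50 without that array and 0.47 without Nrp1-positive replicate 1, and Nkg7 −0.22 without Nrp1-negative replicate 1 and −0.81 with it counted as Nrp1-positive. Over all 4 arrays left out in turn, Gzma ranged from −1.19 to 0.23, Gzmb from −1.08 to 0.50, Nkg7 from −0.22 to 1.75 and Srgn from −0.089 to 0.33. With the replicate block the calls were 52 probe sets in all, 1 granule probe set (Ctsw) and 1 pathway gene (Ctsl), against 0, 0 and 0 without it. With the block and quantile normalisation they were 133, 1 and 3, with pseudocount 1 they were 60, 1 and 1, with pseudocount 64 they were 32, 1 and 1, with no filter 25, 1 and 1, and with a filter at percentile 75 they were 20, 1 and 0. At percentile 75, 5 granule probe sets were tested. Without the mean-variance trend 0 passed, with or without the block. The fits with an array left out or moved to the other group had no replicate block. They are given for the size of each difference only and do not test the calls made with the block. The cause of the changes in calls between settings was not tested.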
